A study of Homo sapiens with 2 samples.

Results

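The 9 members of the MCM helicase family were examined in a ChIP-seq peak list of Flag-tagged ETV4: MCM2, MCM3, MCM4, MCM5, MCM6 and MCM7, which form the helicase ring, and MCM8, MCM9 and MCM10. The genes were taken by name, and all peaks within 10 kb of each gene span in RefSeq were collected, which gave 17 of the 54389 peaks of the list. The list came from 1 anti-Flag immunoprecipitate of A549 cells, a human lung adenocarcinoma line. By the study's text, these cells carried an shRNA against ETV4 and were transfected with Flag-ETV4. The series also has 1 input library, labelled as A549 with no antibody, which is taken here as the control behind the peak values. Its label does not say whether its cells carried the shRNA or the Flag-ETV4. All values therefore describe a tagged factor supplied by transfection in a knockdown background. A peak list holds no expression, so the cell label could not be checked against markers. The antibody is from Sigma in the sample labels and from CST in the study's methods, and this was not settled. With 1 library there is no replicate, so no SD and no test between conditions can be given. Every interval below covers only the counting error of the immunoprecipitate.

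The MCM2-7 proteins assemble into a ring of 6 different subunits that is loaded onto origins in G1 and becomes the motor of the replication fork when CDC45 and GINS join it. MCM8 and MCM9 are related proteins that act together in homologous recombination. MCM10 is not a member of the ring by structure and helps to activate the helicase at the start of DNA synthesis. Transcription of several MCM genes is known to rise towards S phase under E2F factors. ETV4 is an ETS factor of the PEA3 group, and ETS factors bind DNA around a GGAA core.

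Every MCM gene had an ETV4 peak at its start. The peak interval covered an annotated start in 9 of 9 genes, and a peak within 10 kb of the span was thus found for 9 of 9. The background was high: of 19974 protein-coding genes, 81.9% had one in the same 10 kb margin. Of the 15812 protein-coding genes with a start in the RefSeq promoter table, 64.5% had a peak within 1 kb of it. On this measure, which is looser than covering the start, the MCM genes again gave 9 of 9. The share of all genes with a covered start was not computed. The strength of the peaks differed widely. The fold enrichment over input at the summit ran from 3.97 at MCM10 to 61.9 at MCM7, a ratio of 15.6, with a median of 17.1. The median over the 10200 protein-coding genes with a start peak was 17.8, so 4 of the 9 MCM genes lay above it and 5 below it.

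The promoter windows below show the DNA under the summits. RefSeq windows of 300 bases, from 250 before to 50 after an annotated start on GRCh38.p14, were matched by symbol for 7 of the 9 members. They are printed for the 5 members whose summit lies inside a window. Each runs 5′ to 3′ on the strand of the gene, and capitals mark the ETS core, GGAA or its complement TTCC on the other strand.

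MCM2, chr3:127598161-127598460, plus strand: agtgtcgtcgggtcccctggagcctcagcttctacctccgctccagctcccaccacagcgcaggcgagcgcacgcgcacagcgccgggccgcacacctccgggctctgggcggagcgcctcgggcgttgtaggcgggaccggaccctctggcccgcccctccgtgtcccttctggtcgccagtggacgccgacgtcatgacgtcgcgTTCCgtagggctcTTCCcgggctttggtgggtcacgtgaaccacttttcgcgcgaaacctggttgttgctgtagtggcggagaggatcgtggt

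MCM7, chr7:100100705-100101004, minus strand: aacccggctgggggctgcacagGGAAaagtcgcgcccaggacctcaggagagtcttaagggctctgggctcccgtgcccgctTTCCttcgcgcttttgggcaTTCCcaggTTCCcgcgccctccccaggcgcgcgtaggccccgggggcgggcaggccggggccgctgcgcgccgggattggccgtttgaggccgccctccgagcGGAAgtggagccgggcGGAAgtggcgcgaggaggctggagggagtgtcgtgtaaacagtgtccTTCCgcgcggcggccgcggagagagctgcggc

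MCM8, chr20:5950402-5950701, plus strand: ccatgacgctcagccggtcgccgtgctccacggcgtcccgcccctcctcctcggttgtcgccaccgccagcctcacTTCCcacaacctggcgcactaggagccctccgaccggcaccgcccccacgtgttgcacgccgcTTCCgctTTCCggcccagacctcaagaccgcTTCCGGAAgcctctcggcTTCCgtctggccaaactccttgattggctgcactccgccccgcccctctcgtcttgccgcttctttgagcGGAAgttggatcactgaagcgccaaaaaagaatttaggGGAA

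MCM9, chr6:118935110-118935409, minus strand: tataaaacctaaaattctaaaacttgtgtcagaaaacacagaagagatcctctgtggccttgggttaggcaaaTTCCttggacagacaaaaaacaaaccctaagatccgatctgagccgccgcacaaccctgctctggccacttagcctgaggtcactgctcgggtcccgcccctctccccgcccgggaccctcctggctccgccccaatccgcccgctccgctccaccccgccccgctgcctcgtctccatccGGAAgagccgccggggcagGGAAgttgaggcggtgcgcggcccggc

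MCM10, chr10:13161308-13161607, plus strand: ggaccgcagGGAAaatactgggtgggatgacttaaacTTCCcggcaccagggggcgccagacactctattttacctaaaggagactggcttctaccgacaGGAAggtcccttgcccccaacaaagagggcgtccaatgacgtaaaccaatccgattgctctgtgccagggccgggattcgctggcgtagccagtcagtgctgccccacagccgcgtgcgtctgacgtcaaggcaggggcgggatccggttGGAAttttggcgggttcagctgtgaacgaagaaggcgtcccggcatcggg

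The core alone carried little information, since 95.5% of all 34961 promoter windows hold it. Its distance from the summit differed among the members. In MCM10 the nearest core was 4 bp from the summit, in MCM8 16 bp, and in MCM7 and MCM9 18 bp. The MCM10 summit rests on only 11 fragments, so its position is uncertain. Distances over all promoters were not computed, so whether these are short cannot be said. The MCM9 summit is base 295 of the 300 in its window, so a nearer core just downstream would not have been seen. In MCM2 the nearest core was 68 bp from the summit, and the window held 2 matches, against a median of 3 over all windows. The longer ETS motif CCGGAAG, searched on both strands and containing the core, was present in the windows of MCM8 and MCM9 and in 10.3% of all windows. In MCM8 it occurred on both strands at 1 site, 72 to 81 bp before the start. In MCM9 it lay from 2 to 8 bp after the start. The AP-1 motif TGANTCA was in none of the 9 windows of the MCM genes (7.68% of all windows hold it).

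Of the study's ChIP-PCR oligonucleotides for MCM promoters, 2 could be placed in these windows. The reverse primer for MCM2, tggcgaccagaagggacacggaggg, matched the antisense strand from 94 to 70 bp before the start (chr3:127598317-127598341), and its nearer end was 17 bp from the summit. The reverse primer for MCM10, atcggattggtttacgtcattg, matched from 117 to 96 bp before the start (chr10:13161441-13161462), 100 bp from the summit. The forward primers for MCM2 and MCM10 had no exact match in the windows, and those for MCM4 and MCM5 could not be searched, since these genes have no window.

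A second shared feature was the E2F motif. It was searched on both strands in 4 spellings, TTTCCCGC, TTTCGCGC, TTTGCCGC and TTTGGCGC. The first of these contains TTCC and so overlaps the ETS core. At least 1 spelling was present in a window of 5 of the 7 members with windows, namely MCM2, MCM3, MCM6, MCM7 and MCM8. Over all protein-coding genes with windows the share was 5.41%. The match nearest to the start is shown in capitals with 15 bases to each side, since it was often within a few bases of the start.

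MCM2, chr3:127598398-127598439, plus strand: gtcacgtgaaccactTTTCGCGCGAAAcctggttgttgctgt

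MCM3, chr6:52284724-52284761, minus strand: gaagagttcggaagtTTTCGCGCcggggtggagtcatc

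MCM6, chr2:135876507-135876548, minus strand: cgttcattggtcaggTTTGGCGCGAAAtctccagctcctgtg

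MCM7, chr7:100101384-100101421, minus strand: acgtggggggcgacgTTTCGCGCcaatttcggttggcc

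MCM8, chr20:5950663-5950700, plus strand: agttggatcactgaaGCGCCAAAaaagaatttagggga

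In MCM2 and MCM6 the capitals join overlapping matches on both strands, 12 bases in all. The match began 2 bp after the start in MCM2, 26 bp after it in MCM8, 4 bp before it in MCM3, 9 bp before the outermost start in MCM7 and 90 bp before it in MCM6. The ETV4 start peaks of these 5 genes ranged over nearly the whole family, from 4.84 at MCM2 to 61.9 at MCM7. Over the 855 protein-coding genes with an E2F motif in a window, 79.3% had a start peak, and the median fold of those peaks was 18.2. Counted by window, the CCAAT box was in 8 of the 9 windows of the members and in 34.6% of all windows. The SP1 box GGGCGG was in 8 of the 9 and in 45.0% of all windows. Each box was found in 6 of the 7 members, and 3 of the 9 windows belong to MCM7. These matches are counts of letters and do not show that a factor was bound.

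The windows of the members were also rich in CpG. In the window with the most CpG of each gene, the lowest count was 21, at MCM9 and MCM10, against a median of 14 over all windows, and the highest was 39 at MCM7. Among the 9405 protein-coding genes with at least 21 CpG in a window, a limit taken from the members' own values, 85.8% had a start peak and 65.1% had a start peak with a fold of 10 or more. These shares are closer to those of the MCM genes than the shares over all genes were. Base composition was not corrected for, and its part in the counts was not tested.

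Among the ring genes, MCM7 had the strongest peak. MCM7 lies on chromosome 7 from 100092728 to 100101397 on the minus strand, and its peak from 100100181 to 100102367 was the widest of the start peaks at 2187 bp. At the summit it was enriched 61.9-fold, and its −log10 q was 397. The depth there, computed from the fold and the −log10 p of the list, was 270 fragments over a control of 3.38. The exact Poisson 95% interval of the depth was 239 to 304, and such intervals stand in parentheses for the other peaks. RefSeq gives MCM7 3 starts over 868 bp, and the summit was 39 bp inside the middle one. AP4M1, which encodes a subunit of an adaptor complex for vesicle traffic, starts on the opposite strand 79 bp from the summit, and the spans of both genes overlap by 604 bp. The peak covered starts of both, so its signal cannot be divided between them. The peak lay at percentile 96.3 of the start peaks of protein-coding genes.

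MCM6 lies on chromosome 2 from 135839626 to 135876443 on the minus strand. Its start peak (135875643 to 135876678) was enriched 39.7-fold with a −log10 q of 161, and the summit lay 200 bp downstream of the start. There were 120 fragments (99.5 to 143) over a control of 2.05. The nearest other start in the promoter table, that of LCT-AS1, was 56052 bp away, and MCM6 had no further peak within 10 kb.

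MCM4 and MCM3 had start peaks of intermediate strength. MCM4 lies on chromosome 8 from 47960941 to 47978160, and its start peak (47959841 to 47961443) was enriched 17.1-fold with a −log10 q of 87.8. There were 98 fragments (79.6 to 119), and the control of 4.78 was the highest among the start peaks of the family. The summit lay 816 bp before the start, the largest distance in the family, and only 11 bp from the end of PRKDC, the gene of the DNA-dependent protein kinase catalytic subunit. The 2 genes are 804 bp apart, and the single interval covered the gap. The end of PRKDC that faces MCM4 is known as its 5′ end, though the tables used here give no strand for PRKDC. MCM3 lies on chromosome 6 from 52264015 to 52284742 on the minus strand. Its start peak (52284254 to 52285230) was enriched 16.1-fold with a −log10 q of 58.7, 65 fragments (50.2 to 82.8) over a control of 3.11, and a summit 173 bp downstream of the start. The fold intervals of MCM3 and MCM4, obtained by putting the bounds of the pileup into the fold with the control held fixed, were 12.5 to 20.4 and 13.9 to 20.8 and overlapped.

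MCM5 and MCM2 had the weakest peaks of the ring. MCM5 lies on chromosome 22 from 35400140 to 35455031. Its start peak (35399810 to 35400616) was enriched 5.68-fold with a −log10 q of 9.53, 20 fragments (12.2 to 30.9) over a control of 2.70, and a summit 230 bp before the start. MCM2 lies on chromosome 3 from 127598411 to 127622436 on the plus strand. Its start peak (127598194 to 127598640) was the narrowest of the family at 447 bp. It was enriched 4.84-fold with a −log10 q of 7.90 and also had 20 fragments (12.2 to 30.9), over a control of 3.34. The summit was 111 bp before the start of MCM2 and 69 bp from the start of TPRA1, which runs the other way and is 179 bp from MCM2. The peak covered starts of both genes, so its signal cannot be divided between them. The fold intervals of MCM5 and MCM2, 3.57 to 8.62 and 3.05 to 7.35, overlapped each other, and both lay wholly below that of MCM3. By fold, MCM5 was at percentile 10.3 and MCM2 at percentile 6.67 of start peaks.

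Outside the ring, MCM8 and MCM9 had strong or intermediate peaks and MCM10 the weakest of the family. MCM8 lies on chromosome 20 from 5950652 to 5998977 on the plus strand. Its start peak (5949569 to 5951127) was enriched 46.8-fold with a −log10 q of 236 and 172 fragments (147 to 200) over a control of 2.70. The summit was 127 bp before the start of MCM8 and 8 bp from the start of TRMT6, which encodes a subunit of a tRNA methyltransferase and runs in the opposite direction, 118 bp away from MCM8. A single peak thus covered both starts, and the parts of the signal that belong to either gene cannot be told apart.

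MCM9 lies on chromosome 6 from 118813455 to 118935159 on the minus strand. Its start peak (118934255 to 118935435) was enriched 21.4-fold with a −log10 q of 73.2 and 69 fragments (53.7 to 87.3) over a control of 2.28, and the summit lay 44 bp downstream of the start. The lncRNA LOC124901389 starts on the other strand, 200 bp from the summit and within the peak, so this signal cannot be divided between the genes either. MCM10 lies on chromosome 10 from 13161558 to 13211110 on the plus strand. Its start peak (13161082 to 13161642) was enriched 3.97-fold with a −log10 q of 3.75, and the summit lay 217 bp before the start. Only 11 fragments (5.49 to 19.7) were piled up over a control of 2.03, and the fold interval was 2.15 to 6.84. MCM10 was at percentile 2.86 of start peaks, close to the lower end of the list, whose lowest fold was 2.34 and lowest −log10 q 1.30.

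**Figure D1:**
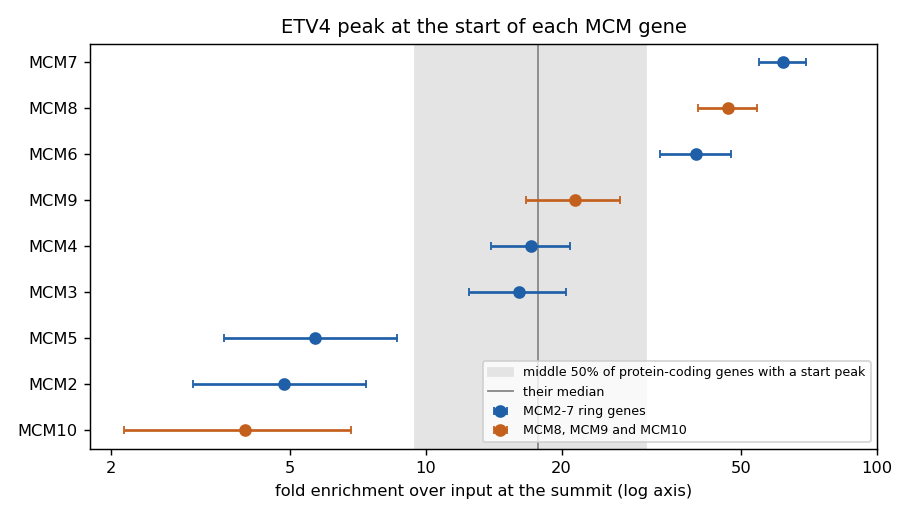
Fold enrichment over input at the summit of the start peak of each MCM gene, on a log axis. Points are single values from 1 library, bars are exact Poisson 95% intervals of the pileup with the control held fixed, and the grey band holds the middle 50% of protein-coding genes with a start peak. MCM7, MCM8 and MCM6 lie above the band, MCM5, MCM2 and MCM10 below it, and both colours occur at either end.

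The ring genes and the other 3 genes did not separate. The start folds ran from 4.84 to 61.9 in MCM2-7, with a median of 16.6, and were 3.97, 21.4 and 46.8 in MCM10, MCM9 and MCM8, with a median of 21.4. A ring gene had the higher fold in 9 of the 18 pairs of a ring gene and 1 of the other 3. Widths of 447 to 2187 bp in the ring and 561 to 1559 bp outside it overlapped as well, as did pileups of 20 to 270 and 11 to 172 fragments. No p is given, because the 9 genes are not replicates of a condition.

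In order of fold, the family read MCM7, MCM8, MCM6, MCM9, MCM4, MCM3, MCM5, MCM2 and MCM10. Of the 8 pairs of neighbours in this order, 5 had overlapping fold intervals. The intervals were separate between MCM7 and MCM8 (lower bound 54.8 against upper bound 54.2), between MCM6 and MCM9 and between MCM3 and MCM5. They hold the control fixed and leave out its own counting error, so separate intervals do not show a difference beyond all counting error. Of all 36 pairs of members, 29 had separate intervals. The upper 3 genes thus had folds of 39.7 or more, the middle 3 from 16.1 to 21.4 and the lower 3 of 5.68 or less. The control level ranged only from 2.03 to 4.78, so the order of pileups was close to the order of folds.

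A fold of 5 or more at the start was reached by 7 of the 9 genes, all but MCM2 and MCM10, against 59.9% of protein-coding genes with a listed start. A fold of 10 or more was reached by 6 of the 9, against 47.1%. The 6 were MCM3, MCM4, MCM6 and MCM7 of the ring, with MCM8 and MCM9. The 4 genes whose promoters the study also assayed by ChIP-PCR, MCM2, MCM4, MCM5 and MCM10, had start folds of 4.84, 17.1, 5.68 and 3.97. The other 5 genes had 16.1 to 61.9, so that the sets overlapped only through MCM4 and MCM3. This promoter ChIP-PCR used other cells, H1299 with an ETV4 antibody and H358 expressing ETV4 with a Flag antibody. At the MCM4 origin, which the study places before the MCM4 start, it also reported anti-Flag ChIP-qPCR. That assay used A549 cells with the shRNA and Flag-ETV4, as in this list. The study turned to these genes because their expression fell after ETV4 knockdown and because its ChIP-seq, the source of this list, showed ETV4 at their promoters. It also reported promoter-reporter, mRNA and protein results for them.

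The summits of the start peaks lay 39 to 816 bp from the nearest start of their own gene, with a median of 173 bp. Of the 9 summits, 8 were within 250 bp of it, and the exception was MCM4, whose summit was at the end of PRKDC. Over all protein-coding genes with a start peak, 58.4% of the strongest start peaks had their summit within 250 bp, and the median distance was 196 bp, close to that of the MCM genes. The summit was before the start in MCM2, MCM4, MCM5, MCM8 and MCM10 and inside the gene in MCM3, MCM6, MCM7 and MCM9. A start on the opposite strand within 1 kb, as a shared promoter would have, was listed for MCM2, MCM7, MCM8 and MCM9, 4 of the 7 members in the promoter table, against 26.0% of protein-coding genes. MCM4 and MCM5 could not be counted. MCM4 and PRKDC are known to be transcribed away from each other, so MCM4 may belong with the 4, but PRKDC has no start or strand in the tables used here. A start peak was found for 85.7% of the protein-coding genes with such an opposite start and for 57.1% of those without. The median folds, 18.8 and 17.1, were similar. In the family, shared starts were found at either end of the range, since MCM7 and MCM2 both have one.

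**Figure D2:**
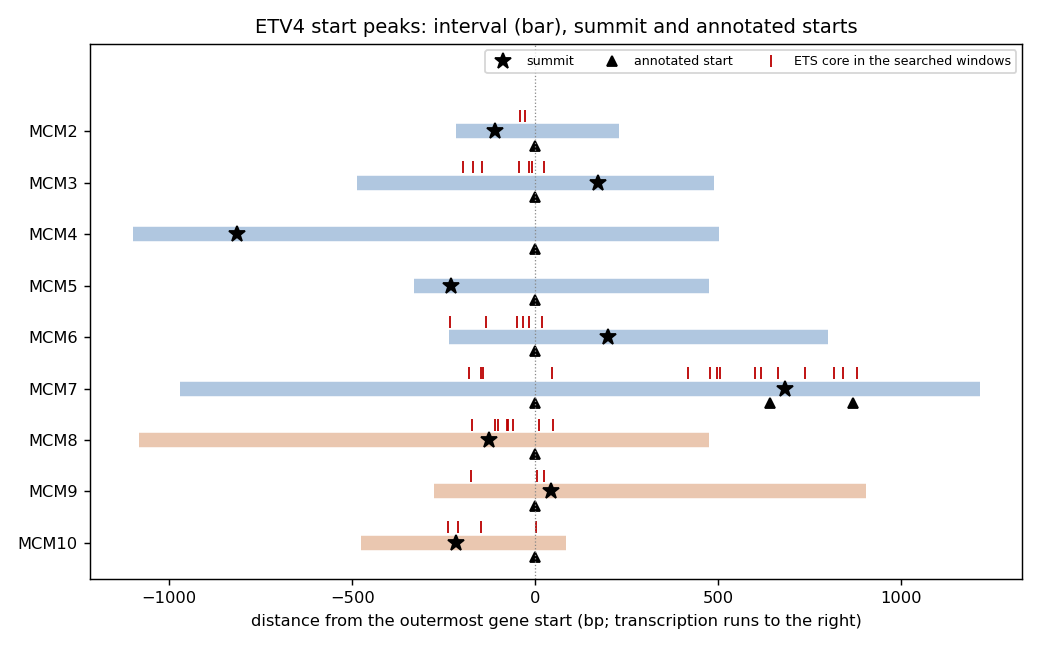
Start peaks of the MCM genes against distance in bp from the outermost start of each gene, with transcription to the right. Bars are peak intervals (blue for the ring, orange for the others), stars are summits, triangles annotated starts and red ticks ETS cores in the promoter windows, which were not searched for MCM4 and MCM5. Each bar covers a start, 8 of the 9 stars lie within 250 bp of one, and that of MCM4 lies 816 bp before it.

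Away from the starts, the 10 kb neighbourhoods held 8 further peaks, and most of them belonged by position to other genes. MCM4, MCM5, MCM6 and MCM10 had only their start peak. MCM2, MCM3, MCM8 and MCM9 had 1 further peak each, and MCM7 had 4. In 8 of the 9 genes the start peak was the strongest of the neighbourhood, against 52.4% of the 13145 protein-coding genes with a start and a peak within 10 kb.

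The exception was MCM2. The peak from 127589238 to 127591942, 7961 bp upstream, was enriched 51.9-fold, with a width of 2705 bp and 161 fragments (137 to 188), whereas the start peak had 4.84 and 20 fragments. It lay inside TPRA1, with a summit 283 bp from 1 of the 2 starts that RefSeq lists for that gene. The intervals of the 2 pileups were far apart, and the control levels were 2.12 and 3.34.

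Around MCM7, 3 of the further peaks were nearest to COPS6, which encodes a subunit of the COP9 signalosome and lies beyond the 3′ end of MCM7. The strongest, from 100088642 to 100090197, was enriched 53.5-fold with 223 fragments (195 to 254), with a summit 49 bp from the COPS6 start. The other 2, from 100087044 to 100087530 and from 100090758 to 100091607, had folds of 11.7 and 10.1. The remaining peak, from 100098184 to 100098652, was inside MCM7 and weak, with a fold of 5.54 and 27 fragments (17.8 to 39.3). MCM7 is the host gene of the microRNAs MIR25, MIR93 and MIR106B. No peak overlapped their hairpins, and the inner peak had its summit 4382 bp before the MIR106B hairpin. A count of 5 peaks within 10 kb was not rare, since 8.06% of the 6403 protein-coding genes of 4 to 20 kb in length had 5 or more.

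In MCM9, which spans 122 kb, the only other peak lay 40443 bp inside the gene, from 118893823 to 118895433, with a fold of 17.6 and 58 fragments (44.0 to 75.0). Its summit was 564 bp from the start of ASF1A, a histone H3-H4 chaperone gene that lies within MCM9. The 80.4 kb of MCM9 from this peak to the 3′ end held no peak. Beyond the 3′ end of MCM8, a peak from 6005733 to 6006722 had a fold of 14.5, and its summit was 90 bp from an end of CRLS1, the cardiolipin synthase gene. Beyond the 3′ end of MCM3, a peak from 52255115 to 52255520 had a fold of 6.87 and 19 fragments (11.4 to 29.7). Its summit was 8734 bp past MCM3 and 10781 bp from the nearest listed start, that of IL17F.

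**Figure D3:**
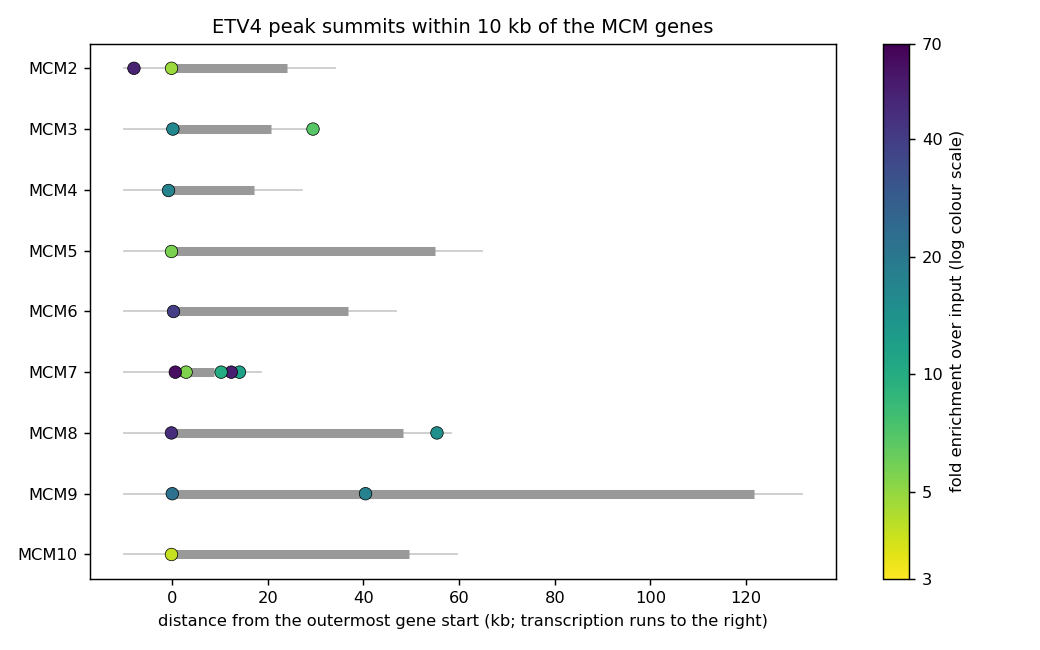
Summits of the 17 peaks within 10 kb of the MCM genes, by distance in kb from the outermost gene start, with transcription to the right. Thick bars are gene spans, thin lines the 10 kb margins, and the colour gives the fold enrichment on a log scale. Every gene has a summit at its start, MCM7 has 5 summits in all, and the dark point upstream of MCM2 is the peak of fold 51.9 inside TPRA1.

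The partners of the helicase were taken from a list of 26 genes that load, activate, hold back or work with it. Of the 22 with a start in the promoter table, 21 had a peak within 1 kb of a start, against the 64.5% given above. A fold of 5 or more was reached by 20 of them, against 59.9% of protein-coding genes with a listed start. A fold of 10 or more was reached by 15, against 47.1%. The median start fold of the partners was 13.8, below the 17.8 of all start peaks and the 17.1 of the MCM genes. Counting either end of a gene instead, 24 of the 26 had a peak, against 62.3% of protein-coding genes. The highest folds were 60.9 at DBF4, the regulatory subunit of the CDC7 kinase that phosphorylates MCM proteins, 51.4 at CLSPN, a checkpoint mediator at the fork, and 41.0 at ORC2, a subunit of the origin recognition complex. ORC5, another subunit of that complex, was the gene without a start peak, and it had no peak within 10 kb.

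By role, 5 of the 6 ORC genes had start peaks, with folds of 5.38 to 41.0. For this count and those below, the share over all protein-coding genes with a listed start was 64.5%. All 3 of CDC6, CDT1 and GMNN, which load the ring or hold its loading back, had start peaks with folds of 6.57 to 16.1. Of CDC45 and the GINS genes, which complete the active helicase, 4 of the 4 with a listed start had peaks, with folds of 4.32 to 27.0. The 3 genes of fork protection, TIMELESS, TIPIN and CLSPN, had folds of 13.8 to 51.4. Of the firing factors, the 4 with a listed start had peaks with folds of 5.50 to 60.9, and the single genes MCMBP, which binds MCM proteins, and HROB, which recruits MCM8-MCM9, had folds of 9.10 and 17.5. None of these ranges lay apart from that of the MCM genes. That range runs from percentile 2.86 to percentile 96.3 of start peaks, so nearly any set of start peaks would overlap it.

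**Figure D4:**
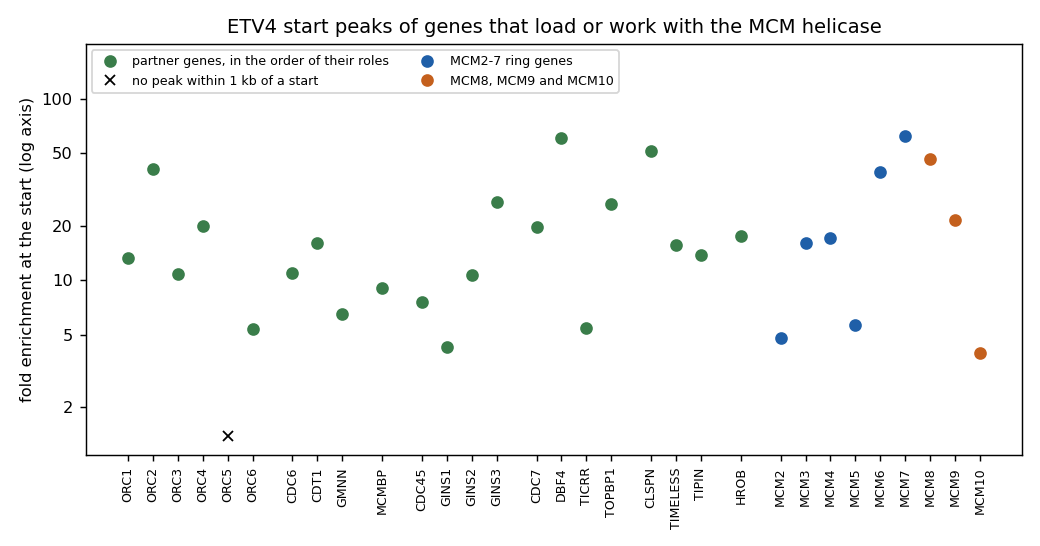
Fold enrichment of the strongest start peak, on a log axis, for 22 partner genes of the MCM helicase in the order of their roles (origin recognition, loading, MCM binding, CDC45 and GINS, firing, fork, MCM8-MCM9 loading) and for the 9 MCM genes. Points are single values from 1 library, and the cross at ORC5 marks the absence of a start peak and has no value. Partners with a peak range from 4.32 to 60.9 and the MCM genes from 3.97 to 61.9.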

How the data were processed

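ChIP-seq of Flag-ETV4 was represented by 1 immunoprecipitate and 1 input library. The latter is taken as the control of the peak calling and enters only through the peak values. The authors deposited a narrowPeak list that gives, per peak, a ratio of IP to control (fold enrichment), −log10 p-values and −log10 q-values, and a score for display, not used here. The submitters' processing notes name Bowtie2 2.4.1, SAMtools, MACS2 2.2.7.1 and deepTools 3.5.0 and the build hg38. Their parameters and the handling of duplicate reads are not given in the sources used here.

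Genes and starts came from RefSeq tables on GRCh38.p14 (chromosomes 1 to 22 and X). The starts of MCM4 and MCM5, not in the promoter table, were taken as the left end of the gene from the direction in the study's browser tracks. Exons were not used. A start peak is an interval within 1 kb of a start. The pileup was solved from fold, taken as (pileup + 1)/(control + 1), and the Poisson p, and 100% of peaks gave whole numbers to within 0.01. The solver was checked on simulated data. The median pileup of all peaks was 26 fragments. Members, partner list and motifs were chosen with earlier results of these data known. Genes named are the members, the nearest neighbours of their peaks, and of the partners the 3 with the highest fold and those without a start peak. MIR25, MIR93 and MIR106B, and the partners grouped by role, were named after the values were seen. Computation used scipy 1.17.1, pandas 2.3.3 and numpy 2.4.6 under Python 3.11.15, with plots from matplotlib 3.10.9.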

Additional observations from a re-analysis of the deposited data

How the results depend on the processing

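With only the gene span in place of the 10 kb margin, the number of peaks at the MCM genes was 11 in place of 17, and 9 of 9 genes still had a peak. Of the other alternatives for counts and medians, 31 were within 1.5 times the reported value, a wide tolerance that takes in falls from 9 to 6 start peaks and from 17 to 12 peaks. With a fold of 10 or more, the ring genes with a start peak fell from 6 to 4 and the partners from 21 to 15. Over protein-coding genes with a listed start, the share fell from 64.5% to 47.1%. The 27 alternative values of single start folds (windows of 500 bp and 3 kb, and summits in place of intervals) were all unchanged. Only the 3 kb window could have changed them. Each gene had a single start peak, whose interval covered a start and whose summit lay within 1 kb of it. A −log10 q of 10 or more left 6 of the 9 genes with a start peak, without MCM2, MCM5 and MCM10. The share of all protein-coding genes at this limit was not computed, so whether 6 of 9 is high or low cannot be said. The use of either end for the partner genes was chosen after seeing the data. Depth limits the weakest peaks most, with 11 fragments at MCM10 and 20 at MCM2 and MCM5. No paired analysis was possible because there was 1 sample in each group and no test.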
